A study of Mus musculus with 130 samples.

Results

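The 6 genes described here bring iron into liver cells: Trf, Tfrc, Steap3, Slc11a2, Slc39a14 and Slc39a8. They were chosen by name and matched to Ensembl identifiers, and all 6 were found among the 35274 genes of the diet tables and the 35711 genes of the strain panel tables. Liver RNA from the large lobe was sequenced in 130 male mice. The diet study had 15 C57BL/6J mice, 3 on each of 5 diets: chow, diets with a sufficient 50 ppm or an elevated 500 ppm of iron, and 2 diets of 2% carbonyl iron (20000 ppm), of which one had cellulose for its fiber. In the panel, 115 mice of 114 inbred strains ate chow for 4 weeks and then the 2% carbonyl iron diet for 6 weeks, so no panel mouse was without iron loading. Its recombinant inbred families were BXD (56 strains), AXB/BXA (20), BXH (4) and CXB (3), and 31 strains were other inbred lines. Only 129X1/SvJ was represented by 2 mice, so for all other strains strain and mouse cannot be told apart in this design. The libraries held 10.4 to 20.4 M counts (M stands for 1000000) in the diet study and 9.41 to 20.6 M in the panel, and p-values measure only the spread between these mice.

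Iron travels in blood bound to transferrin, the product of Trf, which hepatocytes make and secrete. Transferrin receptor 1 (Tfrc) takes iron-loaded transferrin into endosomes, where the ferrireductase Steap3 reduces the iron and the transporter Slc11a2, also known as DMT1, moves it to the cytosol. When transferrin is saturated, the ZIP transporter Slc39a14 (ZIP14) takes up iron that is not bound to transferrin, and Slc39a8 (ZIP8) is its closest relative. The mRNAs of Tfrc and of one form of Slc11a2 carry iron responsive elements in the 3′ UTR, hairpins bound by iron regulatory proteins when cells are short of iron, and binding stabilizes the Tfrc mRNA.

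The genes lie on 6 chromosomes of the GRCm38 build, with positions from the GENCODE M21 annotation. Trf (ENSMUSG00000032554) is at chr9:103204001-103230444 on the minus strand and Tfrc (ENSMUSG00000022797) at chr16:32608920-32632794 on the plus strand. Steap3 (ENSMUSG00000026389) is at chr1:120190757-120272705, minus, and Slc11a2 (ENSMUSG00000023030) at chr15:100387898-100425072, minus. Slc39a14 (ENSMUSG00000022094) is at chr14:70303469-70351425, minus, and Slc39a8 (ENSMUSG00000053897) at chr3:135825279-135888572, plus.

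The iron responsive elements are printed because Tfrc and Slc11a2, which hold them in 1 annotated coding transcript each, are also the genes whose mean transcript length varied most, as given below. The search was for a bulged C, a stem of 5 base pairs (G-U pairs allowed) and the loop CAGTGN, on the transcript's own strand of the annotated coding transcripts. Capitals mark the bulged C and the 6 bases of the loop, and all sequences run 5′ to 3′.
Tfrc element 1, chr16:32631220-32631247, plus strand: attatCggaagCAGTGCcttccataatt
Tfrc element 2, chr16:32631599-32631626, plus strand: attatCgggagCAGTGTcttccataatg
Tfrc element 3, chr16:32631664-32631691, plus strand: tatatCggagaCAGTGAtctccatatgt
Tfrc element 4, chr16:32631711-32631738, plus strand: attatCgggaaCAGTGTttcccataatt
Slc11a2 element, chr15:100395153-100395180, minus strand: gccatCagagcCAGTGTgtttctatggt

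The 4 Tfrc elements lie in the 3′ UTR of Tfrc-201, a transcript of 4890 bases, and in no other of its 3 coding transcripts. Tfrc-202, at 1860 bases, ends before them. The Slc11a2 element lies in the 3′ UTR of Slc11a2-205, of 4415 bases, and has 1 extra unpaired base on the 3′ side of its stem. It is absent from Slc11a2-201, of 3025 bases, and from the other 4 of the 6 coding transcripts. The search found neither form in Trf, Steap3, Slc39a14 or Slc39a8. Among 21877 protein-coding genes, 160 (0.731%) held the strict form in a UTR and 437 (2.00%) held either form. A match is a description of letters, not a measured binding site.

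Per transcript length, the 6 genes spanned a wide range of levels. Over the 15 diet mice, the median level of Trf was 10450.5 TPM (transcripts per 1000000), that of Slc39a14 was 88.4 TPM, and that of Slc11a2 was 12.2 TPM. Slc39a8 had a median of 10.6 TPM, Steap3 of 7.31 TPM and Tfrc of 5.66 TPM. Across the 114 strains the medians were 16152 TPM for Trf, 110.5 for Slc39a14, 10.7 for Slc11a2, 9.44 for Slc39a8, 5.70 for Tfrc and 5.62 for Steap3. The order of the last pair thus differed between the studies, but the diet medians pool 5 diets, while every panel mouse ate 2% iron. On 2% iron the means were 7.09 TPM for Tfrc and 5.46 for Steap3, and with cellulose 9.84 and 5.75 TPM, the order of the panel. The tables of the studies were normalized separately. Further levels are in CPM unless TPM is named, counts per 1000000 scaled with TMM factors, which compare samples but not genes. All 6 genes passed the filter on low counts, with no fewer than 99 counts per diet library, the lowest being in Tfrc.

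The question of the diet study was how dietary iron changes the liver, and the 2% diet moved these genes in both directions. Trf, the carrier, and Slc39a14, of the non-transferrin route, rose, and the endosomal reductase gene Steap3 fell, while Tfrc, Slc11a2 and Slc39a8 did not pass the test. On 2% iron against 50 ppm, 3 of the 6 genes were thus called at an adjusted p under 0.05 by edgeR's quasi-likelihood test, beside 15.7% of all 13560 genes tested. With cellulose, 5 of the 6 were called against 50 ppm, beside 29.7% of all genes. The median log2 change of the 6 genes was 0.18 without and 0.14 with cellulose, beside 0.01 and 0.00 over all genes. These comparisons share their 50 ppm mice, so their values are given side by side and do not support one another.

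**Figure D1:**
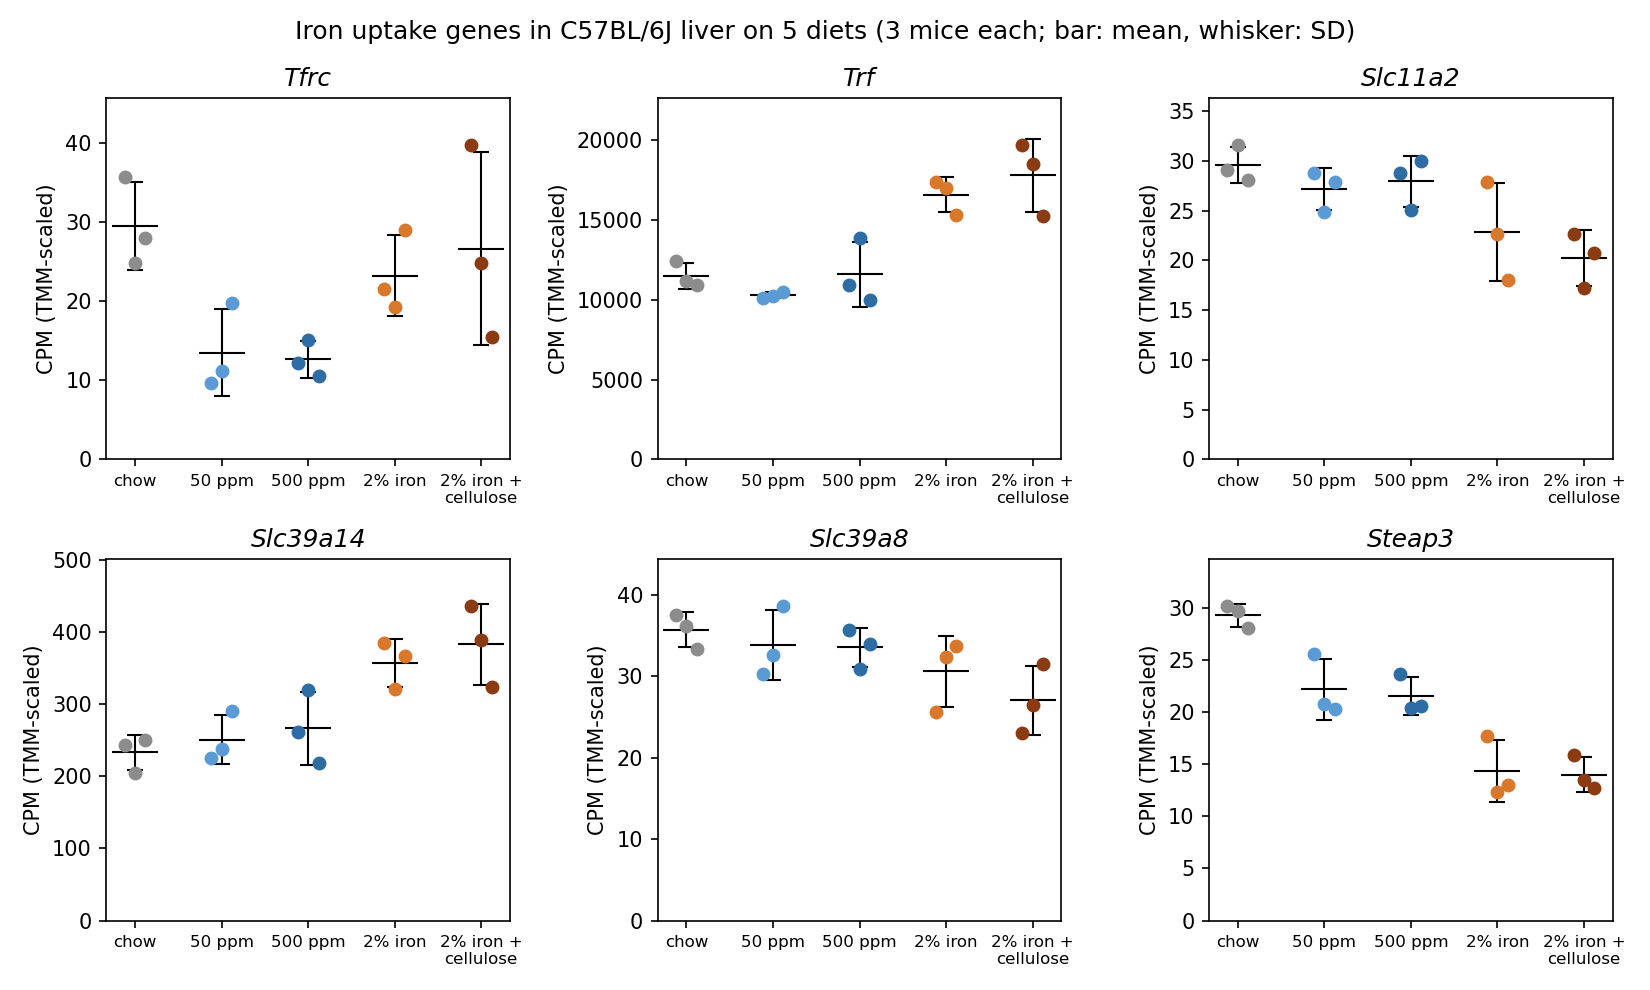
CPM of each gene (vertical axes, from 0) in the 15 C57BL/6J mice by diet. Points are mice, horizontal bars are group means and whiskers are SD (n = 3). Steap3 in the 6 mice on the 2% diets lies at 12.4 to 17.7 CPM, below every other mouse, and Trf in those mice lies at 15264 to 19697 CPM, above every other mouse.

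Trf, the iron carrier of plasma, stood at 12432, 11149.9 and 10924 CPM in the 3 chow mice and at 10107, 10255 and 10513 CPM in the 50 ppm mice. The 500 ppm mice had 10951, 13899 and 9985 CPM. On 2% iron the values were 17401, 16997.5 and 15324 CPM, and with cellulose they were 19697, 18494 and 15264 CPM. Every mouse on a 2% diet was above every mouse on the other 3 diets. The group mean rose from 10291.5 ± 206 CPM (SD, n = 3) on 50 ppm to 16574 ± 1101 on 2% iron, a fold of 1.61 (log2 change 0.69 ± 0.15 SE, adjusted p = 0.00725). With cellulose the mean was 17818 ± 2293 CPM, a fold of 1.73 over 50 ppm (log2 change 0.79 ± 0.15 SE, adjusted p = 0.00163). Bulk RNA does not separate a change per cell from a change in which cells are present.

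Tfrc, the receptor for iron-loaded transferrin, varied most between mice of one diet. Chow mice had 35.6, 24.8 and 27.99 CPM, 50 ppm mice 9.60, 11.1 and 19.7 CPM, and 500 ppm mice 12.1, 15.1 and 10.6 CPM. On 2% iron there were 21.5, 19.2 and 28.9 CPM, and with cellulose 39.7, 24.8 and 15.4 CPM. High values thus occurred on chow and on both 2% diets, and the 2% groups overlapped both the chow and the 50 ppm mice. The mean on 2% iron was 23.2 ± 5.09 CPM against 13.5 ± 5.46 on 50 ppm, a log2 change of 0.77 (95% interval 0.05 to 1.497) that missed the threshold (adjusted p = 0.124). Without 50 ppm replicate 3, the highest mouse of its group, the change was 1.16 and was called (adjusted p = 0.0429). With cellulose the mean was 26.6 ± 12.2 CPM and Tfrc rose by a log2 change of 0.97 over 50 ppm (adjusted p = 0.0361). That call rested on single mice: leaving out cellulose replicate 1 gave 0.55 (adjusted p = 0.211), and it was also lost without cellulose replicate 2 (0.0625), without 50 ppm replicate 1 (0.137) and without 50 ppm replicate 2 (0.115), as it was in a fit of the compared groups only (0.0896). Cellulose replicate 1, the mouse with the highest Tfrc, had neutrophil markers at 69.7 CPM, against 6.35 and 12.2 CPM in replicates 2 and 3. Erythroid and Kupffer cell markers were instead highest in replicate 3, the cellulose mouse with the lowest Tfrc, at 441 and 728 CPM. Within that group, erythroid markers were lowest in replicate 1, at 171 CPM. The part of these cells in the Tfrc levels was not tested.

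Steap3, the endosomal ferrireductase, was lowest on the 2% diets. Its mean was highest on chow, but chow against 50 ppm was not called (edgeR, adjusted p = 0.299). It stood at 30.2, 29.7 and 28.1 CPM on chow, at 25.6, 20.8 and 20.3 CPM on 50 ppm, and at 23.7, 20.4 and 20.6 CPM on 500 ppm. The 2% iron mice had 17.7, 12.4 and 12.97 CPM and the cellulose mice 15.9, 13.5 and 12.7 CPM. Chow mice were above all others and both 2% groups were below all others, with the 50 and 500 ppm mice overlapping in between. Against 50 ppm, Steap3 fell on 2% iron from 22.2 ± 2.92 to 14.4 ± 2.94 CPM (log2 change -0.63 ± 0.14 SE, adjusted p = 0.00884) and on 2% iron with cellulose to 14.02 ± 1.64 CPM (log2 change -0.66 ± 0.14 SE, adjusted p = 0.00346). Leaving out 50 ppm replicate 1, the highest of its group, ended the first call, with a log2 change of -0.52 (adjusted p = 0.0530).

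Slc11a2, which carries iron out of the endosome, had 29.05, 31.6 and 28.1 CPM on chow, 28.8, 24.8 and 27.9 CPM on 50 ppm and 28.8, 25.1 and 29.98 CPM on 500 ppm. On 2% iron it had 27.8, 22.7 and 18.01 CPM, and with cellulose 22.7, 17.2 and 20.8 CPM. The cellulose mice all lay below the 50 ppm mice, and the 2% iron mice overlapped them. Against 50 ppm the log2 change was -0.25 on 2% iron (95% interval -0.57 to 0.07, adjusted p = 0.257), and on 2% iron with cellulose it fell by 0.42 on the log2 scale (adjusted p = 0.0384). In TPM the same contrast went the other way, at a log2 change of 0.27 on the log2(TPM + 1) scale (limma, adjusted p = 0.323), and TPM divides by a transcript length that was shorter in those mice, as described below. The count-based call was also lost without 50 ppm replicate 1 (adjusted p = 0.125) or 3 (0.0898) and without cellulose replicate 2 (0.145) or 3 (0.0609).

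Slc39a14, the importer of non-transferrin iron, had 243.7, 204.9 and 250.3 CPM on chow, 225.6, 236.9 and 289.5 CPM on 50 ppm and 260.7, 319.4 and 218.1 CPM on 500 ppm. The 2% iron mice had 384.3, 320.0 and 366 CPM, and the cellulose mice 435, 388 and 324 CPM. All 6 were above every mouse on the other diets, with the lowest of them and 500 ppm replicate 2 nearly level. Slc39a14 rose on 2% iron over 50 ppm from 250.7 ± 34.1 to 357 ± 33.1 CPM, a fold of 1.42 (log2 change 0.51, adjusted p = 0.0383), and with cellulose to 382 ± 55.9 CPM, a fold of 1.53 (log2 change 0.61, adjusted p = 0.00926). The first of these calls was lost without 2% iron replicate 1 (log2 change 0.44, adjusted p = 0.125) or 3 (0.49, 0.101) and without 50 ppm replicate 1 (0.44, 0.152) or 2 (0.47, 0.110), and also in limma on log2(TPM + 1) (0.61, 0.0639), while the direction held.

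Slc39a8, the closest relative of Slc39a14, did not share its rise. It had 37.6, 36.3 and 33.4 CPM on chow, 30.3, 32.7 and 38.6 CPM on 50 ppm and 35.7, 30.95 and 34.01 CPM on 500 ppm. On 2% iron it had 25.7, 32.4 and 33.7 CPM and with cellulose 23.1, 26.6 and 31.5 CPM. All groups overlapped except the cellulose mice against chow. Against 50 ppm the log2 change was -0.15 on 2% iron (95% interval -0.44 to 0.14, adjusted p = 0.484) and -0.33 with cellulose (95% interval -0.62 to -0.03, adjusted p = 0.0765). Without cellulose replicate 3 the latter was -0.46 and was called (adjusted p = 0.0247).

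**Figure D2:**
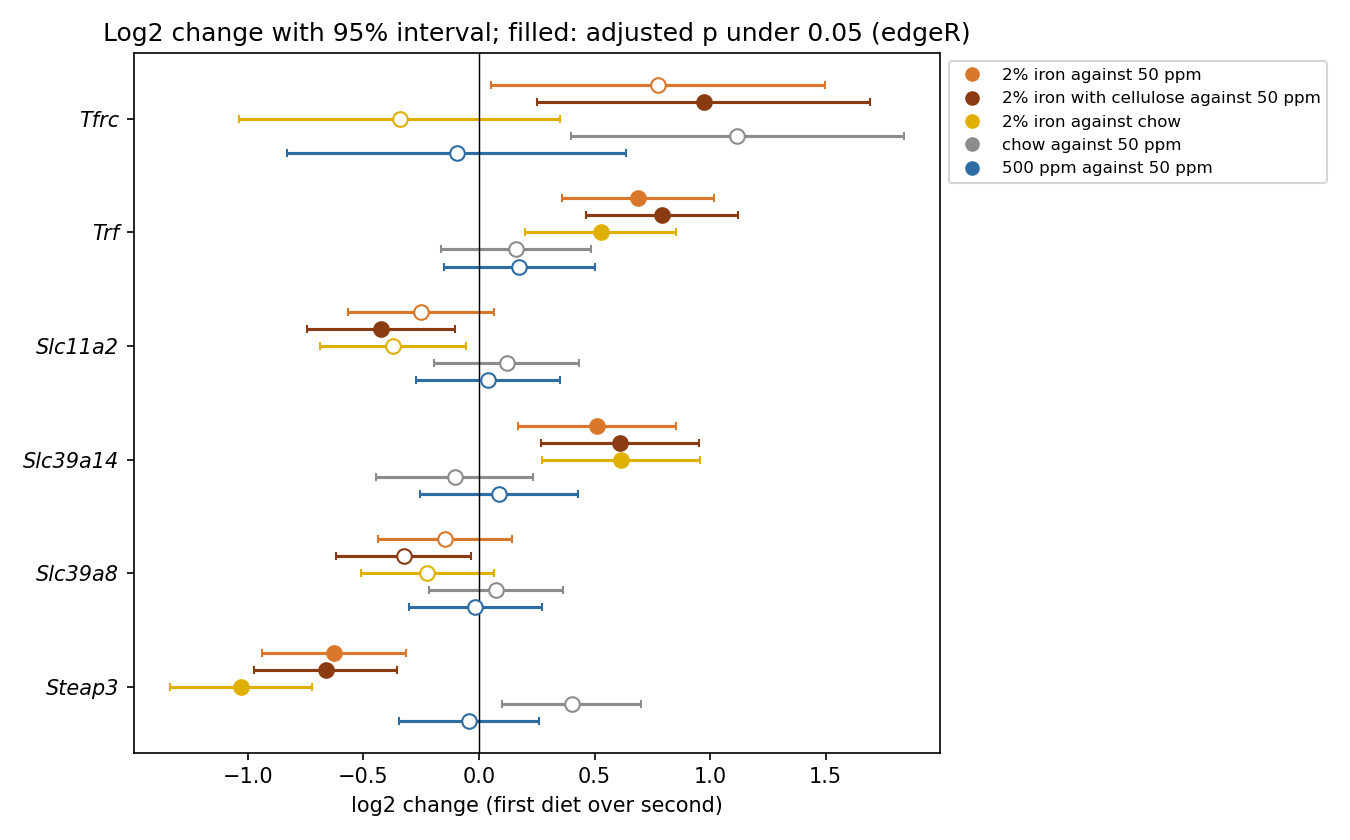
Log2 change of each gene (horizontal axis; first diet over second) in 5 contrasts, with 95% intervals as whiskers. Filled points passed an adjusted p of 0.05 in edgeR: Trf, Slc39a14 and Steap3 in all 3 contrasts of a 2% diet with 50 ppm or chow, and Tfrc and Slc11a2 with cellulose alone. Contrasts with a shared diet share those mice.

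No change of the 6 genes was detected on 500 ppm iron against 50 ppm. No gene of all 13560 was called by edgeR (0%), and 428 had an unadjusted p under 0.05, none of them one of the 6. DESeq2 and limma called 0 genes as well. The log2 changes lay between -0.10 for Tfrc and 0.17 for Trf. Their 95% intervals ran from -0.83 to 0.64 for Tfrc, from -0.15 to 0.50 for Trf and from -0.34 to 0.26 for Steap3. The log2 changes on 2% iron against 50 ppm, 0.69 for Trf, 0.77 for Tfrc and -0.63 for Steap3, lay outside these intervals. So did 0.51 for Slc39a14 (interval on 500 ppm -0.25 to 0.43). Those of Slc11a2, at -0.25 (-0.27 to 0.35), and Slc39a8, at -0.15 (-0.30 to 0.27), lay inside. The changes on 2% iron have an error of their own and share the 50 ppm mice. Their place beside these intervals is thus no test between the diets, and the direct contrast follows.

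The 2% diet against 500 ppm gave 2 calls among the 6 genes, beside 11.3% of all genes. Trf was higher (log2 change 0.51, adjusted p = 0.0374) and Steap3 lower (-0.58, adjusted p = 0.0147). Tfrc at 0.87 (adjusted p = 0.0966) and Slc39a14 at 0.42 (adjusted p = 0.0920) missed the threshold. The groups did not overlap in any of these genes, called or not, and the share of all genes with no overlap was not computed. Neither call was firm. Both were lost without 2% iron replicate 2 (adjusted p = 0.0893 for Trf and 0.0616 for Steap3), without 2% iron replicate 3 (0.0601 and 0.0695) and without 500 ppm replicate 1 (0.130 and 0.0689). That of Trf was also lost without 2% iron replicate 1 (0.118) or 500 ppm replicate 3 (0.137), without a filter on low counts (0.0662) and with the compared groups only (0.170). The Steap3 call was lost with the compared groups only (0.0604) and in limma on TPM (0.0560). Tfrc was called with the compared groups only (0.87, 0.0374), and Slc39a14 was called without 500 ppm replicate 2 (0.57, adjusted p = 0.0249).

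The labels give no iron content for chow, so it has no place in the order of iron doses. Against chow, the 2% diet again gave 3 calls, beside 22.8% of all genes. Steap3 fell by 1.03 on the log2 scale, from 29.3 ± 1.11 to 14.4 ± 2.94 CPM (adjusted p = 2.60e-04), a call kept when any single mouse was left out. Trf rose by 0.53 (adjusted p = 0.0191) and Slc39a14 by 0.61 (adjusted p = 0.0107). The Trf call was lost without 2% iron replicate 1 (adjusted p = 0.0634) or 2 (0.0523) and without chow replicate 2 (0.0634) or 3 (0.0612), and the Slc39a14 call without chow replicate 2 (log2 change 0.52, adjusted p = 0.0548). Slc11a2, at -0.37 (adjusted p = 0.0759), was called at -0.54 without 2% iron replicate 1 (adjusted p = 0.0176). Tfrc was at -0.34 (95% interval -1.04 to 0.35, adjusted p = 0.472) and Slc39a8 at -0.22 (adjusted p = 0.245). On the log2(TPM + 1) scale the sign of Tfrc was reversed, at 0.11 (limma, adjusted p = 0.863).

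Between chow and 50 ppm, 0 of the 6 genes passed the test in edgeR, DESeq2 or limma, and 0.391% of all genes did in edgeR. Unadjusted, 2 of the 6 had a p under 0.05. Tfrc was higher on chow in 3 of 3 mice, with no overlap, at a log2 change of 1.12 (95% interval 0.40 to 1.84, adjusted p = 0.205) and the largest in size of any of the 6 genes in the 7 contrasts. Steap3 was at 0.40 (95% interval 0.10 to 0.70, adjusted p = 0.299), also with no overlap. The groups did not overlap in Trf either, at a log2 change of only 0.16 (edgeR, adjusted p = 0.773). The 2% diet with cellulose for its fiber, against the other 2% diet, gave 0 calls among the 6 genes in the same 3 tools. By edgeR, 0.0811% of all genes were called, and none of the 6 had an unadjusted p under 0.05. The log2 changes of cellulose over 2% iron lay between -0.18 for Slc39a8 and 0.20 for Tfrc, with an interval of -0.50 to 0.89 for Tfrc. The 2% diets were therefore not shown to differ in any of these genes, although Tfrc and Slc11a2 were called against 50 ppm on only one of them.

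Genes around these 6 in the same pathways were followed with lists, whose counts are to be read beside the 15.7% of all genes called on 2% iron against 50 ppm, the 29.7% with cellulose and the 22.8% against chow. Of 11 other genes of the transferrin cycle, 0 were called on 2% iron against 50 ppm. With cellulose 3 were higher, a share near that of all genes: the receptor partner Hfe (log2 change 0.30), the clathrin adaptor Picalm (0.49) and the retromer subunit Vps35 (0.34). Of 4 measured ferrireductases besides Steap3, Steap4 was higher on 2% iron (0.68, adjusted p = 0.0480) and on 2% iron with cellulose (0.84, adjusted p = 0.0104), and Steap2 was lower (-0.66 and -0.38). Cyb561a3 was lower with cellulose (-0.67, adjusted p = 0.00600). Steap2 was also lower on chow than on 50 ppm (-0.99, adjusted p = 0.00228), where Steap3 was at 0.40, so the STEAP genes did not share one order of diets.

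Of 11 other ZIP transporters measured, 1 was called on 2% iron against 50 ppm, Slc39a5, which was lower at -1.65 (adjusted p = 0.0453) with only 0.719 ± 0.324 CPM on 2% iron. With cellulose 1 was higher, Slc39a6 (0.91), and 1 lower, Slc39a13 (-0.48). Neither count was above the share of all genes. Of 8 genes for uptake of heme, hemoglobin or ferritin, 2 were higher on 2% iron, Cd163 (1.36), the hemoglobin scavenger receptor of macrophages, and the heme transporter Slc48a1 (0.43), and 1 was lower, Slc46a1 (-0.62). The same 3 were called in the same direction with cellulose, at 1.64, 0.71 and -0.77, and Timd2, a ferritin receptor, was lower there (-0.52).

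Among 7 genes for iron regulatory proteins and for turnover of these transcripts or proteins, Aco1, which encodes iron regulatory protein 1, fell on 2% iron against 50 ppm (-0.42, adjusted p = 0.00682), with cellulose (-0.34, adjusted p = 0.0102) and against chow (-0.74, adjusted p = 1.46e-04). Ireb2, which encodes iron regulatory protein 2, was lower with cellulose (-0.45, adjusted p = 0.00138) and against chow (-0.24, adjusted p = 0.0492). Fbxl5, whose product marks iron regulatory protein 2 for degradation, was higher against chow (0.39, adjusted p = 0.00973). As a check that the diets acted, the iron hormone gene Hamp stood at 728 ± 42.7 CPM on 2% iron and 276 ± 95.4 on 50 ppm, and its inducer Bmp6 at 28.9 ± 3.38 and 5.81 ± 1.78 CPM.

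Markers of other cells moved with the same contrasts. All 7 Kupffer cell markers were called higher on 2% iron and on 2% iron with cellulose against 50 ppm, and their summed level was 484 to 520.2 CPM and 502.1 to 728 CPM there, against 118 to 187 CPM on 50 ppm. Erythroid markers summed to 325 to 480 CPM on 2% iron, 171 to 441 CPM with cellulose and 68.6 to 110.3 CPM on 50 ppm, with 5 of 7 higher and 1, Alas2, lower on 2% iron. Neutrophil markers summed to 3.38 to 11.6 CPM on 2% iron, 6.35 to 69.7 CPM with cellulose and 0.388 to 0.912 CPM on 50 ppm. Hepatocyte markers summed to 70203 to 94153 CPM over all 15 mice and were thus abundant in every liver. Their sum was 88847 to 94153 CPM on 2% iron and 82691.5 to 87942 CPM with cellulose, against 74371 to 85652 CPM on 50 ppm. Of the 6 markers, 2, Apoa1 and Serpina1c, were nevertheless lower on both 2% diets against 50 ppm. On 2% iron against 50 ppm, 1 of 6 endothelial markers (Stab2) and 1 of 6 stellate markers (Colec11) were higher, and 0 of 3 lymphocyte and 0 of 4 neutrophil markers were called by edgeR, while with cellulose all 4 neutrophil markers were higher. The part of these cells in the changes of the 6 uptake genes was not tested.

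The tables also carry information on transcript length. Counts divided by TPM, with the library's scale removed, give the mean length of a gene's transcripts weighted by abundance. For genes with a single annotated transcript that ratio was constant, with a coefficient of variation under 0.1% in 99.7% of 660 such genes in the diet study and 100% of those in the panel. It is given here relative to the mean of the 50 ppm mice, and it was computed after the difference between counts and TPM had been seen.

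Tfrc transcripts were shorter on the 2% diets. The relative length was 1.08, 1.04 and 1.09 in the chow mice, 1.01, 0.927 and 1.06 on 50 ppm and 1.02, 0.843 and 0.907 on 500 ppm. It was 0.966, 0.751 and 0.829 on 2% iron and 0.701, 0.781 and 0.756 with cellulose. The cellulose mice were all below the 9 mice of the other 3 diets, and the 2% iron mice overlapped them. Over the 6 mice on a 2% diet the mean was 0.797 ± 0.0925 (SD, n = 6), against 0.997 ± 0.0853 (n = 9), with an exact two-sided permutation p of 0.00240, or 0.0144 adjusted over the 6 genes. The 2% iron mice without the cellulose group gave an exact permutation p of 0.0545 on their own.

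Slc11a2 transcripts were shortest with cellulose, at 0.728, 0.640 and 0.603, and 2% iron replicate 3 had 0.617, while the other two 2% iron mice had 1.03 and 1.07. The 9 mice of the other diets ran from 0.742 to 1.23. Over the 6 mice of both 2% diets the difference missed the threshold, at 0.781 ± 0.213 against 0.973 ± 0.152 (exact permutation p = 0.0627, adjusted 0.188). It turned on single mice. Without 2% iron replicate 1 the exact permutation p was 0.0270 and without replicate 2 it was 0.0190, both unadjusted. Those mice had the values of 1.03 and 1.07, so leaving either out could only widen the difference. With the cellulose mice alone, the group with the shortest transcripts, against the other diets the exact permutation p was 0.00909, the smallest possible for that split. None of these p-values is therefore support for a difference. For the other 4 genes the group means lay between 0.973 and 1.02 of the 50 ppm mean (exact permutation p from 0.171 to 0.621).

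**Figure D3:**
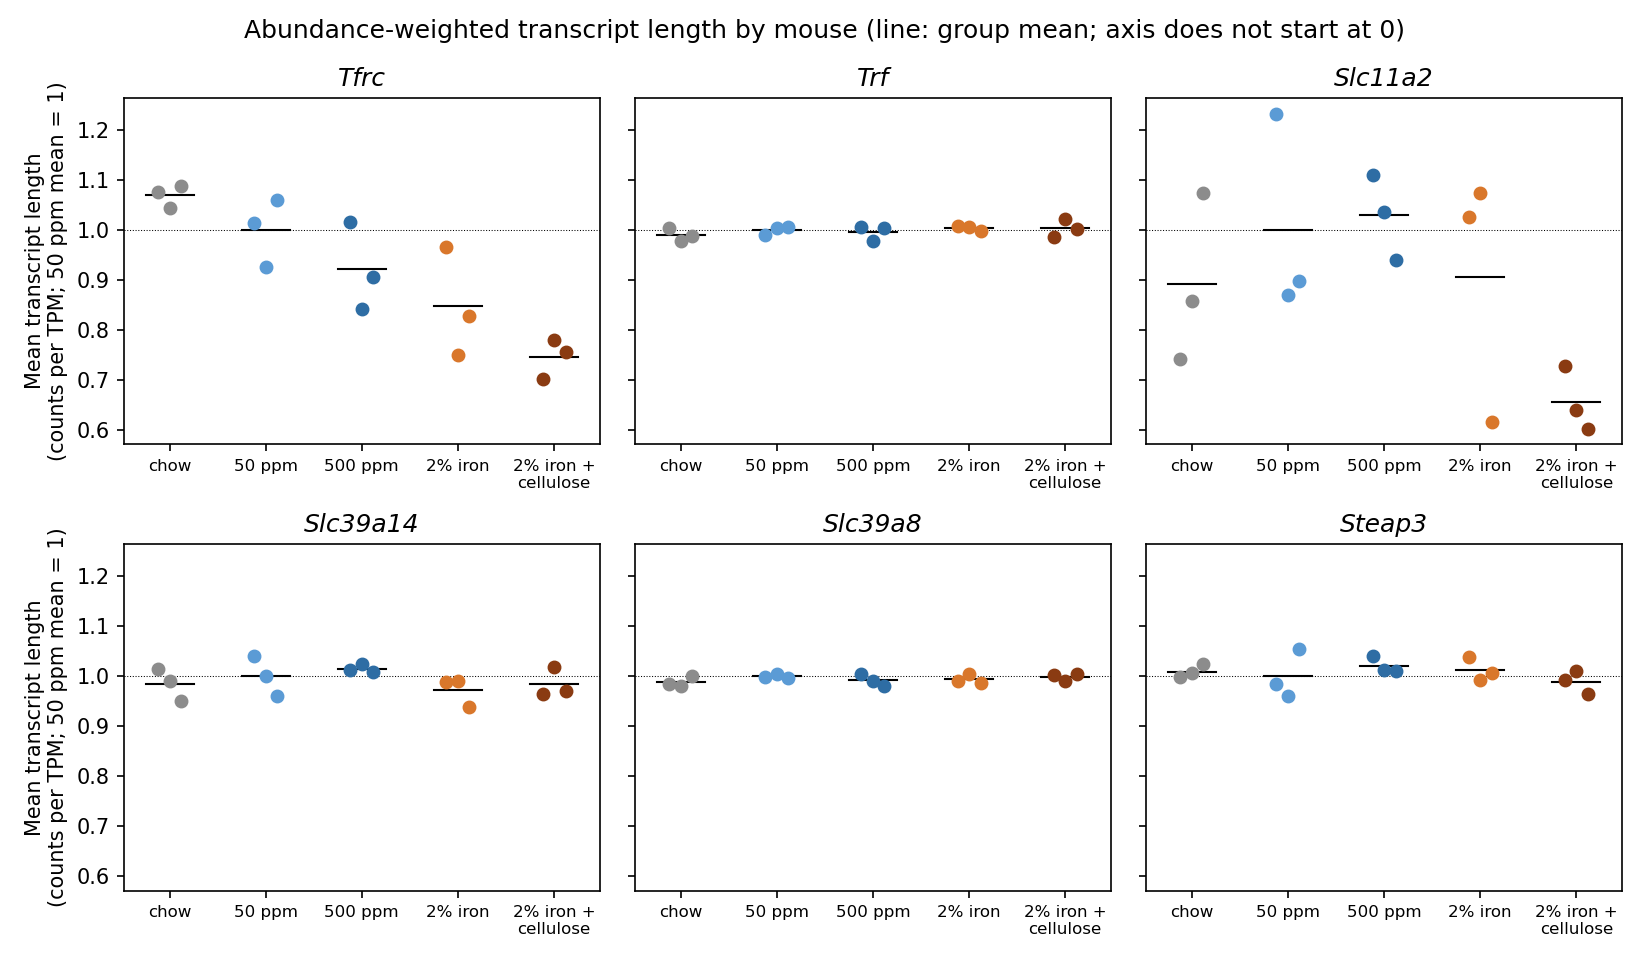
Mean transcript length of each gene relative to the 50 ppm mean (vertical axes, not from 0), by diet. Points are mice and lines are group means (n = 3). Tfrc lies at 0.701 to 0.781 with cellulose and at 1.04 to 1.09 on chow, Slc11a2 at 0.603 to 0.728 with cellulose, and the other 4 genes stay near 1.

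Length varied in the panel for the same pair of genes. The coefficient of variation of length over the panel mice was 22.4% for Slc11a2 and 13.2% for Tfrc, against 5.11% for Trf, 3.45% for Slc39a14, 2.07% for Steap3 and 1.31% for Slc39a8. Tfrc and Slc11a2 are the genes whose long transcripts carry the elements printed above. Annotated coding transcripts are of unequal length in both, as in Trf, Slc39a14 and Steap3, while those of Slc39a8 are close in length. Panel counts of Tfrc and Slc11a2 were lower than those of Trf and Slc39a14, as were those of Steap3, whose length varied little. Whether the elements, the annotated lengths or the low counts account for the variation was not tested. Which transcript gains or loses cannot be read from a mean length, and values per transcript were not used here.

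In the strain panel every mouse ate 2% iron, and the strains differed most in Tfrc. Its level ran from 4.84 CPM in BXD13/TyJ over a median of 15.8 to 112.1 CPM in FVB/NJ, a 23.1-fold range. The next strains from the top were NZB/BlNJ at 104.5 and BXD27/TyJ at 101 CPM, and from the bottom BXD70/RwwJ at 5.77 and AXB19/PgnJ at 6.397 CPM. The 3 highest mice were also high in blood cell markers. Erythroid markers summed to 1552 CPM in FVB/NJ, 1649 in NZB/BlNJ and 705.9 in BXD27/TyJ, against a panel median of 182, and neutrophil markers to 57.1, 61.7 and 99.8 CPM, against a median of 4.71. Their part in the Tfrc levels was not tested. The parental strains C57BL/6J, DBA/2J and A/J lay at 17.7, 13.2 and 14.9 CPM, all within the middle of the distribution, and BXD strains extended past both of their parents on either side. Family means were 21.8 ± 17.3 CPM in BXD (SD over 56 strains), 14.03 ± 6.47 in AXB/BXA (20 strains) and 34.1 ± 29.1 in other inbred strains (31 strains).

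Trf ran from 9034 CPM in BXD15/TyJ over a median of 18431 to 54026 CPM in NOD/ShiLtJ, a 5.98-fold range, with AKR/J at 42595 and BUB/BnJ at 41875 CPM next. The 3 highest strains were thus outside the recombinant families and the 3 lowest (BXD15/TyJ, BXD34/TyJ at 9643 and BXD13/TyJ at 10574 CPM) were BXD strains. In NOD/ShiLtJ, AKR/J and BUB/BnJ the erythroid markers summed to 15.7, 11.7 and 22.5 CPM, below the panel median of 182, unlike in the 3 highest strains for Tfrc. Their neutrophil markers, at 83.4, 6.28 and 41.9 CPM, were above the median of 4.71. The part of these cells in the Trf levels was not tested. C57BL/6J had 20382, DBA/2J 18266 and A/J 22892 CPM of Trf. Family means were 19749 ± 6619 CPM in BXD, 17212 ± 4085 in AXB/BXA and 27636 ± 10948 in other inbred strains.

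Steap3 had a narrow range, from 8.92 CPM in BXD6/TyJ over a median of 14.5 to 30.9 CPM in BTBR T<+> tf/J, which is 3.47-fold. BXA13/PgnJ, at 24.8, and BXD66/RwwJ, at 24.3 CPM, followed at the top. C57BL/6J was among the lowest, at 9.12 CPM and place 111 of 114, while DBA/2J had 15.1 and A/J 15.7 CPM. In TPM the C57BL/6J panel mouse had 3.03, and the 3 C57BL/6J mice on the 2% diet in the diet study had 4.75 to 6.64, in tables that were normalized separately. For the other 5 genes, Tfrc, Slc11a2 and Slc39a8 of that panel mouse fell within the range of the 3 diet mice, and Trf (17247 against 12999 to 15611 TPM) and Slc39a14 (142.1 against 102 to 118 TPM) lay above it.

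Slc11a2 ran from 9.94 CPM in BXD68/RwwJ over a median of 20.0 to 109.6 CPM in BXD48/RwwJ, an 11.02-fold range that rested on that 1 mouse. The next strains were NON/ShiLtJ at 64.6 and BTBR T<+> tf/J at 60.5 CPM. The parents C57BL/6J, DBA/2J and A/J lay close together at 19.3, 19.9 and 21.9 CPM, all near the median.

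Slc39a14 ran from 151 CPM in KK/HlJ over a median of 361 to 914 CPM in BXD27/TyJ, 6.06-fold. NON/ShiLtJ at 666.8 and BXD22/TyJ at 627 CPM came next, and BXD48a/RwwJ at 211 and 129X1/SvJ at 225 CPM were at the bottom. C57BL/6J, at 491 CPM, held place 13 from the top, above DBA/2J (373) and A/J (383 CPM). Slc39a8 varied least, from 16.2 CPM in BXH2/TyJ over a median of 27.4 to 49.01 CPM in AXB12/PgnJ, 3.03-fold. Its 3 highest strains were all AXB/BXA strains, with BXA1/PgnJ at 46.8 and AXB5/PgnJ at 44.3 CPM, while the parents of that family, A/J and C57BL/6J, had 29.7 and 31.4 CPM.

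**Figure D4:**
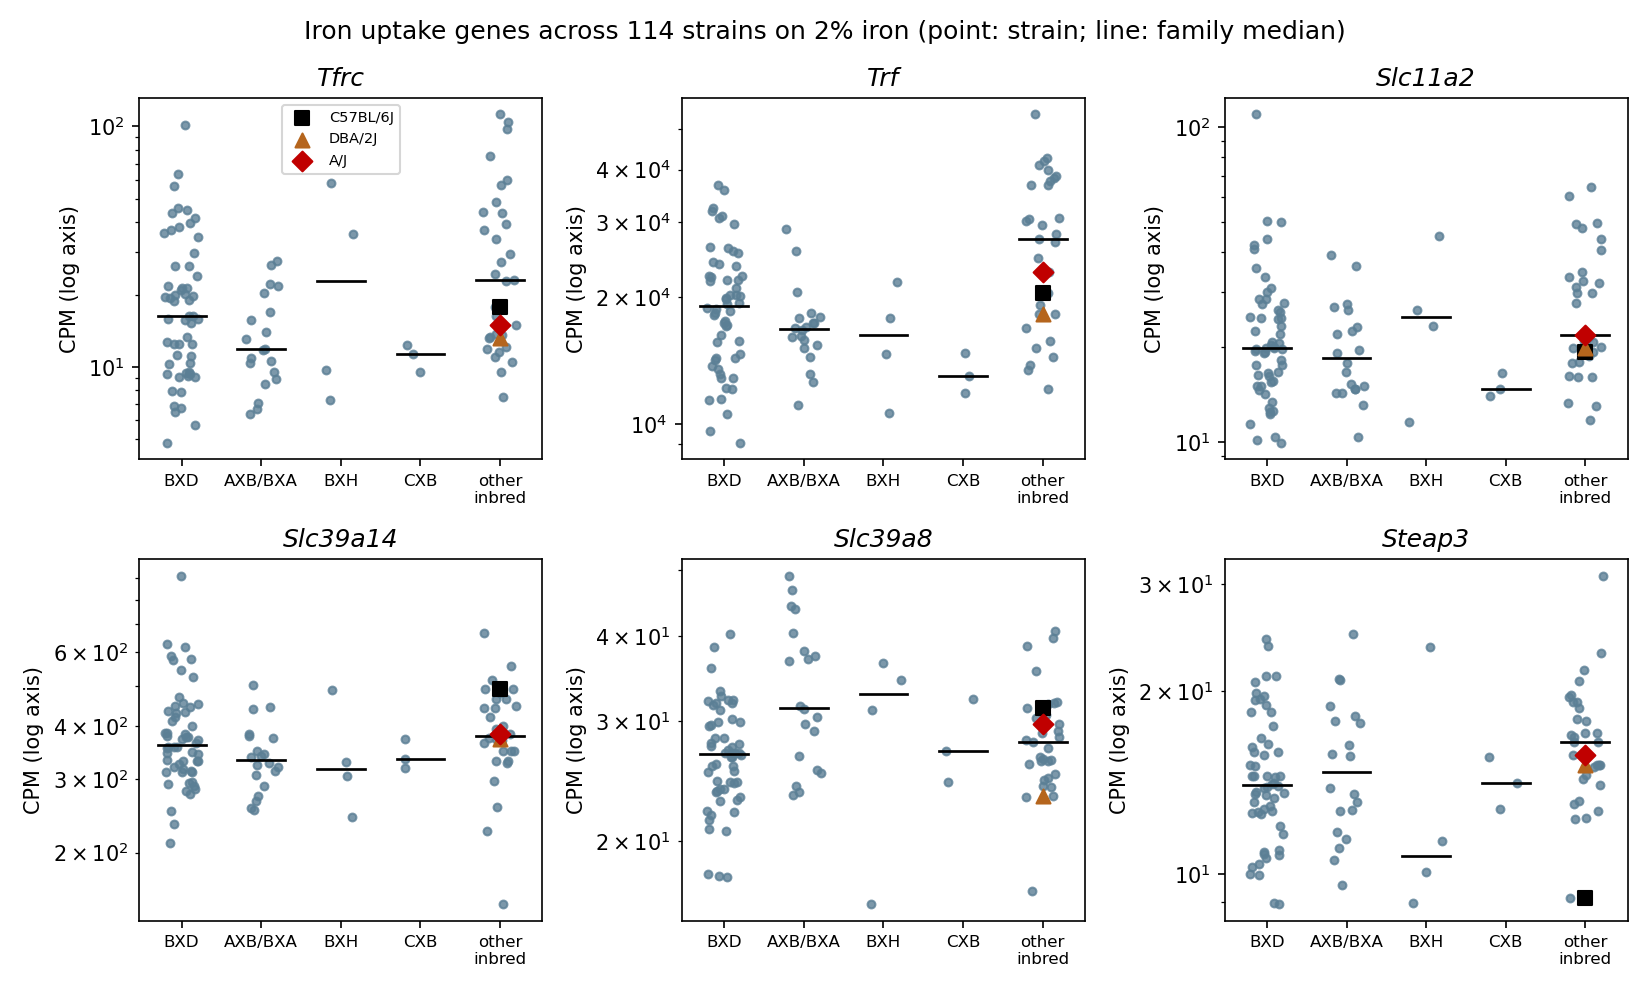
CPM of each gene (log axes) in 114 strains on 2% iron, by strain family. Points are strains, lines are family medians, and squares, triangles and diamonds mark C57BL/6J, DBA/2J and A/J. Tfrc spans 4.84 to 112.1 CPM, the 3 highest strains for Slc39a8 are AXB/BXA strains, and C57BL/6J lies near the bottom for Steap3 at 9.12 CPM.

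With 1 mouse per strain, the spread between strains includes that between mice. The SD of log2 CPM between strains was therefore set beside the pooled SD within the diet groups of C57BL/6J mice, as a description across separately made tables. It was 3.53 times as large for Trf, 3.42 times for Slc11a2, 2.27 for Tfrc, 2.04 for Steap3, 1.85 for Slc39a14 and 1.76 for Slc39a8, beside a median of 1.65 over 13410 genes. Tfrc had the largest SD between strains of the 6, at 1.01 on the log2 scale, but also the largest within diets, at 0.44. The 2 mice of 129X1/SvJ differed 1.34-fold in Tfrc, 1.28-fold in Trf and between 1.06-fold and 1.24-fold in the other 4 genes.

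Between families, BXD strains had lower Slc39a8 than AXB/BXA strains (26.9 ± 4.73 against 33.7 ± 8.17 CPM; log2 change -0.32, adjusted p = 8.15e-04). That was the only 1 of the 6 genes called, beside 11.6% of 13794 genes. Tfrc was at 0.64 (adjusted p = 0.0735, and 0.0499 in DESeq2). Against the other inbred strains, BXD strains had lower Trf (log2 change -0.49, adjusted p = 0.00128) and lower Tfrc (-0.65, adjusted p = 0.0328), so 2 of 6 were called beside 17.9% of 13627 genes. On log2(TPM + 1) with limma the Tfrc difference was -0.47 and was not called (adjusted p = 0.131). Steap3 was at -0.19 (adjusted p = 0.0645) and Slc39a14 at -0.03 (adjusted p = 0.869). Erythroid markers moved in the same contrasts, with 2 of 7 called higher in BXD than in AXB/BXA strains (median log2 change 1.49) and 2 of 7 called lower in BXD than in other inbred strains (median -0.33), and their part in the family differences was not tested. The strains of a family share parental genomes and are not independent draws of mouse genomes.

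Across the 114 strains, 4 of the 6 genes went together. Pearson's r of log2 CPM was 0.707 between Tfrc and Trf (Spearman's rho 0.719), 0.674 between Trf and Slc11a2 (rho 0.649) and 0.591 between Tfrc and Slc11a2 (rho 0.573). Slc39a14 joined them with r of 0.539 to Tfrc (rho 0.566), 0.530 to Trf (rho 0.572) and 0.442 to Slc11a2 (rho 0.445). Each of these 6 pairs had a two-sided permutation p of 1e-05 for r and rho, the smallest that 100000 permutations can give, or 3.9e-05 for r adjusted over 39 relations. Without the 2 strains farthest from the median of the first gene the 6 values of r were 0.701, 0.654, 0.594, 0.535, 0.529 and 0.394.

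The ZIP pair went in opposite directions. Slc39a8 was lower where Slc39a14 was higher (r = -0.366, permutation p = 1.2e-04, adjusted 3.6e-04; rho = -0.379, p = 3e-05) and where Tfrc was higher (r = -0.381, permutation p = 7e-05, adjusted 2.27e-04; rho = -0.340, p = 2.6e-04). These held without the 2 farthest strains, at -0.403 and -0.342. In TPM the first was -0.194 (adjusted p = 0.0602). Steap3 stood apart, with r of 0.305 to Slc11a2 (permutation p = 9.2e-04, adjusted 0.00239; rho 0.283, adjusted 0.00617) and 0.245 to Slc39a8 (permutation p = 0.00877, adjusted 0.0190; rho 0.222, adjusted 0.0341), 0.272 and 0.241 without the farthest strains, and no called relation to Tfrc, Trf or Slc39a14 (r from -0.0930 to 0.176, adjusted p from 0.0984 to 0.358). On log2(TPM + 1) that of Steap3 and Trf was called (r = 0.232, adjusted permutation p = 0.0231; rho 0.214, adjusted 0.0409).

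Within families the group of 4 was seen in BXD and other inbred strains. Tfrc and Trf had r of 0.660 in 56 BXD (adjusted permutation p = 6.5e-05), 0.704 in 31 other inbred strains (adjusted 3.9e-04) and 0.533 in 20 AXB/BXA strains (adjusted 0.0907). Trf and Slc11a2 had r of 0.695, 0.754 and 0.114, and Tfrc and Slc11a2 had 0.557, 0.660 and 0.0434, in the same order of families. Tfrc and Slc39a14 had 0.482, 0.574 and 0.477, Trf and Slc39a14 had 0.454, 0.636 and 0.461, and Slc11a2 and Slc39a14 had 0.471, 0.456 and 0.0730. Tfrc and Slc39a8 had -0.238, -0.434 and -0.693, and Slc39a14 and Slc39a8 had -0.257, -0.260 and -0.665, called in AXB/BXA (adjusted 0.0298 for both) but in neither other family. Slc11a2 and Steap3 had 0.374, 0.193 and 0.306, and Slc39a8 and Steap3 0.134, 0.0229 and 0.558. Whether the families differ in r was not tested.

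**Figure D5:**
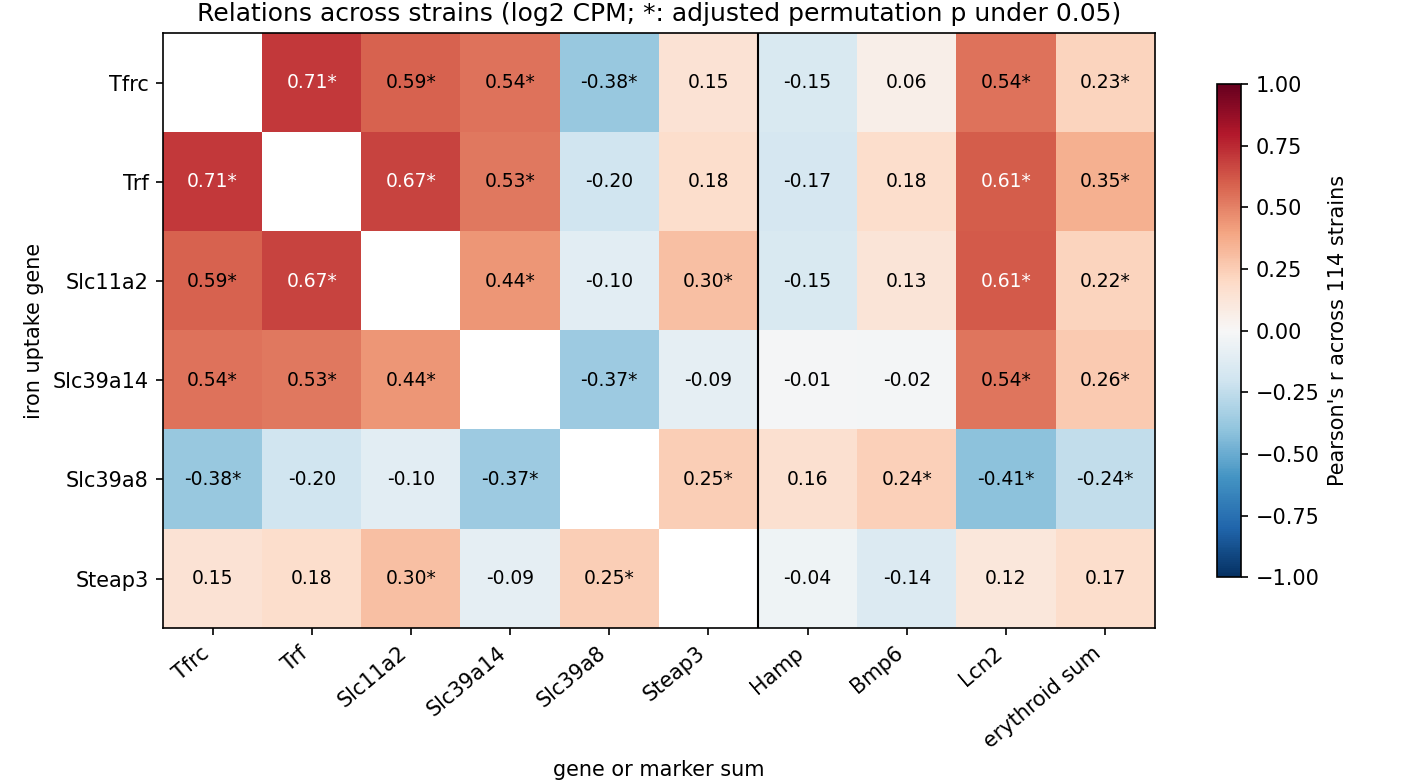
Pearson's r across 114 strains between the 6 genes (rows and left columns) and to Hamp, Bmp6, Lcn2 and the erythroid marker sum (right columns), on log2 CPM. Colour gives r from -1 to 1 and asterisks mark an adjusted permutation p under 0.05. Tfrc, Trf, Slc11a2 and Slc39a14 have r of 0.442 to 0.707 with each other, and no gene has a called relation to Hamp.

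Over all 114 strains on log2 CPM, none of the 6 genes had a called relation to Hamp (r from -0.169 to 0.161, rho from -0.171 to 0.0220, smallest adjusted p = 0.109 for r and 0.112 for rho). On log2(TPM + 1) the relation of Hamp to Slc39a8 was called (r = 0.214, adjusted permutation p = 0.0420), as it was within the other inbred strains (r = 0.455, adjusted 0.0475), though not within BXD (-0.141) or AXB/BXA (-0.423) or by rho. Over all strains on log2 CPM, the only called r of Bmp6 was that with Slc39a8 (0.239, permutation p = 0.0103, adjusted 0.0212), while its rho of 0.177 was not called (adjusted 0.101). That r was 0.440 in BXD, -0.0149 in other inbred and -0.0658 in AXB/BXA strains, and 0.228 without the 2 farthest strains, and centred within families it was 0.209 and no longer called (adjusted permutation p = 0.0514). Bmp6 and Trf had an r of 0.178 (adjusted 0.0977), which was called without the 2 farthest strains (0.261, adjusted 0.0122), centred within families (0.256, adjusted 0.0137) and on log2(TPM + 1) (0.237, adjusted 0.0220). Bmp6 and Slc11a2 had 0.129 (adjusted 0.208), called on log2(TPM + 1) alone of these settings (0.276, adjusted 0.00729).

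Lcn2, which encodes the siderophore-binding lipocalin 2 and rises in inflammation, had r of 0.610 to Slc11a2 (rho 0.557), 0.609 to Trf (rho 0.609), 0.544 to Tfrc (rho 0.534) and 0.539 to Slc39a14 (rho 0.569), each with a permutation p of 1e-05 (adjusted 3.9e-05), the smallest that could be given. It had r of -0.409 to Slc39a8 (rho -0.372, permutation p = 4e-05, adjusted 1.42e-04). Without the 2 farthest strains these were 0.574, 0.581, 0.538, 0.528 and -0.373. In BXD strains they were 0.639, 0.683, 0.505, 0.668 and -0.337, in other inbred strains 0.547, 0.495, 0.508, 0.289 and -0.425, and in AXB/BXA strains 0.601, 0.572, 0.452, 0.235 and -0.135. Steap3 had an r of 0.115 to Lcn2 (adjusted 0.262).

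The summed erythroid markers, which ran from 5.12 to 2632 CPM over the panel mice, had smaller but called relations to 5 of the 6 genes. The r was 0.354 to Trf (rho 0.440, permutation p = 1.3e-04, adjusted 3.62e-04), 0.258 to Slc39a14 (rho 0.331, adjusted 0.0135), 0.226 to Tfrc (rho 0.238, adjusted 0.0302), 0.219 to Slc11a2 (rho 0.225, adjusted 0.0351) and -0.244 to Slc39a8 (rho -0.249, adjusted 0.0190). The unadjusted permutation p of the last 4 was 0.00555, 0.0155, 0.0189 and 0.00875, and rho was called for the same 5 genes, with adjusted p of at most 0.0340. Centred within families, r was no longer called for Tfrc (0.198, adjusted 0.0599), Slc11a2 (0.201, adjusted 0.0599) and Slc39a8 (-0.203, adjusted 0.0589), and on log2(TPM + 1) it was not called for Slc39a8 (-0.163, adjusted 0.115) and was called for Steap3 (0.207, adjusted 0.0461). Within BXD they were 0.468, 0.291, 0.146, 0.277 and -0.212, within other inbred strains 0.192, 0.0615, 0.218, 0.183 and -0.125, and within AXB/BXA 0.367, 0.359, 0.0159, -0.470 and -0.195. Without the 2 farthest strains they were 0.344, 0.318, 0.245, 0.208 and -0.264. The part of blood cells in the relations among the 6 genes was not tested.

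The genes whose levels followed each gene most closely over the 114 strains were named by the highest r among 12913 genes that averaged 1 CPM or more, as a description with no test. All points share their libraries, and each strain is 1 mouse. For Tfrc they included Rbm3 (r = 0.869) and Btg2 (0.840), and for Trf they were Bsg (0.843), Pfkl (0.799) and Fabp4 (0.788). For Slc11a2 they were Lbp (0.697), Mab21l3 (0.697) and Il4ra (0.676), and for Slc39a14 Il1r1 (0.778), Serpina3n (0.741) and Mt1 (0.735). Slc39a8 was followed by Pcdh1 (0.669), Coq8a (0.663) and Sesn3 (0.650). The closest genes to Steap3 were far less close: Dus1l (0.426), Lhx6 (0.414) and Zfp385a (0.401). In the BXD strains alone the r of Rbm3 and Btg2 with Tfrc was 0.880 and 0.900, and that of Il1r1 and Serpina3n with Slc39a14 was 0.864 and 0.851.

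In the library labelled BXD65/RwwJ, 4 Y-linked genes summed to 3.94 CPM, beside a median of 171 CPM over the panel, although all mice are labelled male. Its Tfrc was 13.3 CPM and its Trf 21985 CPM. Without it the number of called relations was 21 and the number of genes called between families was 1 and 2, the same as with it.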

How the data were processed

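The authors deposited expected counts per gene (unnormalized, judged from column sums that differ and from values that are not all whole) and TPM (per 1000000) for the same mice, in separate tables for the diet study and the panel. Per the submitters' processing notes, kallisto 0.46 and the mm10 build were used, with no step stated for either. The labels name a stranded kit, and the strand setting is not given in the sources used here, so reads of antisense genes may be included. Labels give separate mice but no batch or replicate numbers.

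Expected counts were rounded to whole numbers (the design had assumed counts). GENCODE M21 gave symbols for 34845 of 35274 and 35612 of 35711 identifiers. The main test was edgeR 4.0.16 (glmQLFit, glmQLFTest, TMM, filterByExpr) in R 4.3.3, with the 5 diets in one fit and each pair of families in its own, Benjamini-Hochberg adjusted over all genes. Intervals of log2 changes are 95%, from the SE and a t distribution with 10 degrees of freedom. Correlations used log2 CPM with a prior count of 2, the 2 mice of 129X1/SvJ averaged, and 100000 permutations. No gene or marker sum formed separate clusters of strains. All tests were two-sided. Exact tests of 3 against 3 mice cannot go below 0.1 and were not run. The edgeR fit of the diet study was tested on simulated data.

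Results were recomputed with RLE factors, without the filter, with every library at 10 counts or more, with the compared groups only, with DESeq2 1.42.0, with limma 3.58.1 on log2(TPM + 1) and log2(TPM + 0.1), with each mouse left out, with a prior count of 0.5, within single families and centred within families. Only the family tests were also rerun with 1 substrain per name root. The length comparisons were chosen after seeing the data. Python 3.11.15 with scipy 1.17.1, pandas 2.3.3, numpy 2.4.6 and matplotlib 3.10.9 was used. Named genes were the 6 genes, called genes of the lists (up to 4 per list), the 3 genes with the highest r (predicted genes and pseudogenes passed over; 1 is not reported here), the 3 highest and lowest strains and the parents; others were chosen after their values were seen. The 6 genes and the lists were chosen with earlier results of these data known.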

Additional observations from a re-analysis of the deposited data

Results flagged for a closer look

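Steap3 in BXH8/TyJ, at 23.6 CPM, stood far above the other 3 BXH strains, which had 8.96 to 11.3 CPM. It was found by its gap to the nearest strain relative to the range of the family. Of 6 gene and family groups of that size examined, 1 met this criterion, and chance alone gives about 1 in 20 groups.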

How the results depend on the processing

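No paired analysis was possible because the labels give no replicate numbers and nothing ties a mouse of one diet to a mouse of another. With single mice left out, the number of the 6 genes called ran from 1 to 4 for 2% iron against 50 ppm (3 with all mice), from 3 to 5 for cellulose against 50 ppm (5), from 0 to 3 for 2% iron against 500 ppm (2) and from 1 to 3 for 2% iron against chow (3). For 2% iron against 500 ppm it was 1 without a filter, 1 with the compared groups only, and 1 in limma on log2(TPM + 1) and 1 on log2(TPM + 0.1). DESeq2 called 2 genes between BXD and AXB/BXA, adding Tfrc, and limma on TPM called 1 between BXD and other inbred strains, without Tfrc. Of 39 relations, 21 were called over all strains, 2 within AXB/BXA and 10 within other inbred strains, where fewer strains enter. Directions turned for Slc11a2, cellulose against 50 ppm (0.27 and 0.29 in limma on TPM with a pseudocount of 1 and 0.1), and for Tfrc, 2% iron against chow (0.11 and 0.12). Among relations called over all strains, r also turned for Bmp6 and Slc39a8 (-0.0658 within AXB/BXA, -0.0149 within other inbred). It turned as well for the erythroid sum and Slc11a2 (-0.470 within AXB/BXA). Relations not called over all strains are not listed, and some of them turned too. An example is Hamp and Slc39a8, with r of 0.161 over all strains, -0.141 within BXD and -0.423 within AXB/BXA. The first 2 turns set counts against TPM, which divides by transcript length. Mean relative length was 0.657 for Slc11a2 with cellulose, and for Tfrc 0.849 on 2% iron and 1.07 on chow. The cause was not tested for any of these turns. Over all genes, counts of calls ran under the alternatives from 1003 to 2206 for 2% iron against 50 ppm (2127 in the main test), 2388 to 4029 for cellulose (4026), 779 to 2204 against 500 ppm (1538), 1808 to 3124 against chow (3087), 4 to 144 for chow against 50 ppm (53), 0 to 222 for cellulose against 2% iron (11), and 975 to 1949 and 1693 to 3108 between families (1606 and 2435). Of the other values of single genes, 456 kept direction and side of the threshold, 77 dropped below it and 9 rose past it.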
